A study of Homo sapiens with 4 samples.

Results

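The HSP70 family chaperone genes described here are 10 genes, found by symbol among the 57820 rows of the deposited table: HSPA1A, HSPA1B and HSPA6, which are classed as stress-inducible, and HSPA1L, HSPA2, HSPA4, HSPA4L, HSPA8, HSPA9 and HSPA14, which are classed as constitutive. No symbol was repeated among them, and all 10 passed the filter on low counts. The members were selected on their measured difference between the 2 groups of the study (their fold changes in these same libraries), so their fold changes are given as a description, with standard errors (SE) and without p-values. The cells were U87, an established human glioma line. The 2 shNT libraries are labelled as control, the 2 shGlud1 libraries as knock-down of Glud1, and all 4 came from cells held in low glucose for 6 h, in a medium that carried 10% bovine calf serum. No library from another glucose level was analysed here, and the labels do not say how many hairpins or cultures stood behind each group, so the spread between libraries may be technical.

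HSP70 proteins bind exposed hydrophobic stretches of unfolded proteins in a cycle driven by ATP, with J-domain proteins that deliver clients and start ATP hydrolysis and exchange factors that release the ADP. HSPA8 (HSC70) does this work in unstressed cells, whereas HSPA1A, HSPA1B and HSPA6 are switched on by the heat shock factor HSF1 when unfolded protein accumulates. HSF1 binds inverted repeats of a short unit, known as heat shock elements. HSPA9 (mortalin) is the mitochondrial member and draws proteins through the inner membrane, HSPA4 and HSPA4L belong to the HSP110 branch that serves as exchange factors, HSPA14 sits on the ribosome, and HSPA2 and HSPA1L are best known from the testis.

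The promoters of 5 members are printed here because the results turn on these genes: the 3 inducible ones, HSPA8 as the most abundant constitutive member, and HSPA4 as the member with the largest positive fold change. Each covers 250 bases before to 50 bases after the transcription start in RefSeq (build GRCh38.p14), and capitals mark the units of paired heat shock elements, GAANNTTC and TTCNNGAA. Each of these motifs is its own reverse complement, so a single search covered both strands.

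HSPA6, chr1:161524290-161524589, plus strand: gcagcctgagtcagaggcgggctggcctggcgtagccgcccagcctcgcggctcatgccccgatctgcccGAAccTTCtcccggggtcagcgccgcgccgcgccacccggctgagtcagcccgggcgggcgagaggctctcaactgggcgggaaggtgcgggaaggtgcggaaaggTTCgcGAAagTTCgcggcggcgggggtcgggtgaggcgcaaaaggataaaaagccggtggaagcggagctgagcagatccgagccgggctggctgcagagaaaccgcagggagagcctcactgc
HSPA1A, chr6:31815293-31815592, plus strand: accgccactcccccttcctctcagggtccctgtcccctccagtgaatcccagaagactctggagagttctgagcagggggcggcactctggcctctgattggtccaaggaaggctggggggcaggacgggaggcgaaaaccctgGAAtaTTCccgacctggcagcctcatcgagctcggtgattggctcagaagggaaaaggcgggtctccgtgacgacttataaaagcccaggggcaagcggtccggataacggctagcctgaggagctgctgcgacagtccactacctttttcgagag
HSPA1B, chr6:31827488-31827787, plus strand: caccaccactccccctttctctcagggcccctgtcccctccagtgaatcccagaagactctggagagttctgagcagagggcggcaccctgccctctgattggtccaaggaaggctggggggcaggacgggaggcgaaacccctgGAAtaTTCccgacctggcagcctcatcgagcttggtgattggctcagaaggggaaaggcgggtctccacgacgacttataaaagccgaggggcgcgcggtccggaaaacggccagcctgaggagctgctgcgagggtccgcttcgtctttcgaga
HSPA8, chr11:123062087-123062386, minus strand: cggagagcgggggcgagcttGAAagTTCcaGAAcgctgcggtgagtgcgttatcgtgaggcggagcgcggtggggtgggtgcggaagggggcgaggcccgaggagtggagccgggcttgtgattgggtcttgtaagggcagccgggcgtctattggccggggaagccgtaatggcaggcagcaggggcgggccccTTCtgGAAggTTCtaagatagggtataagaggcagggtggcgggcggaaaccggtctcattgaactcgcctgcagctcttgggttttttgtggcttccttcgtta
HSPA4, chr5:133051763-133052062, plus strand: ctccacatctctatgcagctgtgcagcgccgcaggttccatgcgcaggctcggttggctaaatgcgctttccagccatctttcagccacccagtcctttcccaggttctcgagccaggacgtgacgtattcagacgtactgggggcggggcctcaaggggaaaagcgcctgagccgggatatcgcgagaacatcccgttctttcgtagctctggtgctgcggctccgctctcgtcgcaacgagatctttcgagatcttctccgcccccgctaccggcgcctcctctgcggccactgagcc

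Of the 9 members with a promoter in the RefSeq table, 7 held at least 1 pair of either form in any of their promoters. Among 35116 promoters of the same length 13.5% held one, a share per promoter and not per gene. HSPA14 was not in the table. Linked units, in which a GAANNTTC and a TTCNNGAA share a unit so that 3 units follow one another, were present in 2 members, HSPA6 and HSPA8, against 0.49% of all promoters. In HSPA6 the linked units began at position -74 from the start, and in HSPA8 there was 1 set at -230 and another at -55. HSPA1A and HSPA1B each held a single pair, at -106 and -105, and their promoters were identical at 277 of 301 aligned columns (92%). HSPA1L lies on the opposite strand next to HSPA1A. Their promoter windows share 241 bases, and the pair at -161 of HSPA1L is the same site as the one at -106 of HSPA1A (chromosome 6, first base 31815437). HSPA9 held a pair at -4, HSPA4L held one at -170 in 1 of its 3 promoters, and HSPA4 and HSPA2 held none. These are matches of letters in a window and do not show binding.

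**Figure D1:**
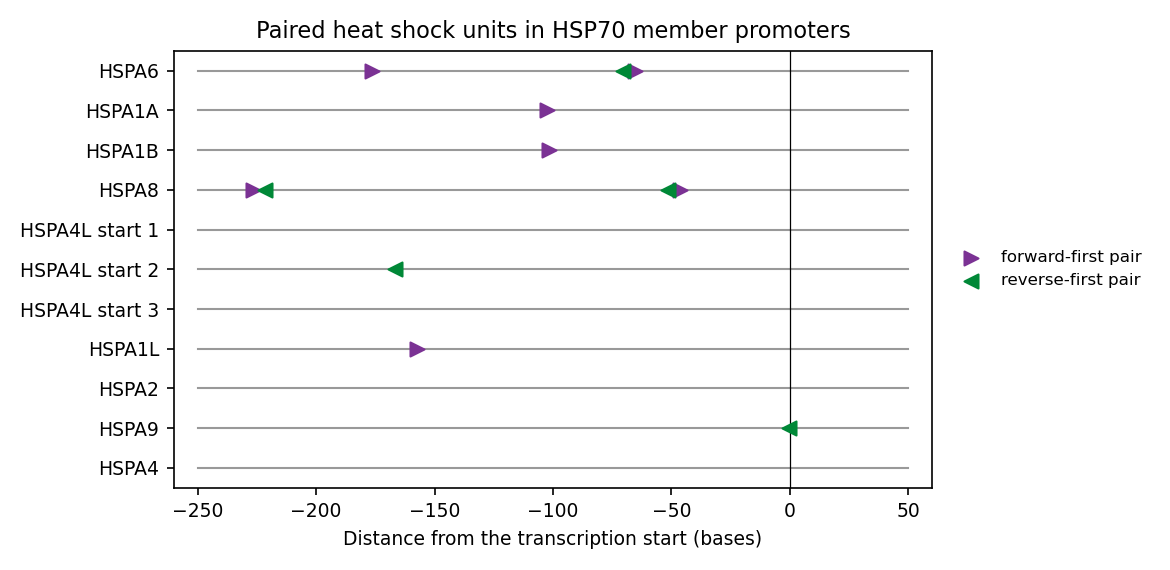
Positions of paired heat shock units in the promoters of 9 HSP70 members; the horizontal axis is the distance from the transcription start in bases, each grey line is 1 promoter, and the arrows are the forward-first (GAANNTTC) and reverse-first (TTCNNGAA) pairs. Abutting arrows in HSPA6 and HSPA8 are the linked units, HSPA1A and HSPA1B hold 1 pair each, and HSPA4 and HSPA2 hold none.

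GLUD1 (ENSG00000148672), the gene targeted by the hairpin, was lower in both shGlud1 libraries. Its level was 78.1 and 76.5 CPM with shNT and 34.0 and 44.5 CPM with shGlud1 (log2 fold change -0.98, SE 0.13, adjusted p = 1.26e-12 in edgeR's quasi-likelihood test with Benjamini-Hochberg adjustment), and under total counts alone the value was -0.45. CPM here is the expected count scaled by the library total and a TMM factor. These factors were 0.826 and 0.845 for shNT and 1.15 and 1.24 for shGlud1. The libraries held 16546849 to 18537314 expected counts. Of the 14616 genes tested, 61% were called changed at an adjusted p under 0.05, with 4257 lower and 4662 higher in shGlud1. Scaled by total counts alone, 65.6% were called, with 13.7% (2000) lower and 51.9% (7592) higher, and the median log2 fold change of all genes moved from 0.06 to 0.57, so values of members under total counts are to be read against 0.57. GFAP was near 0 (0.27 CPM on average in shNT and 0.19 in shGlud1), as were OLIG2 and S100B. SOX2 and AQP4 had no counts in any library. These glial markers were lacking, while VIM and CD44 were abundant. NES (7.62 CPM on average in shNT and 29.1 in shGlud1), SOX9 (8.80 and 14.3) and SLC1A3 (2.53 and 3.49) were present at lower levels. NES, SOX9 and VIM were called higher in shGlud1 (log2 fold changes 1.93, 0.70 and 0.99), and CD44 and SLC1A3 were not called. The 10 glioma and astroglia markers summed to 3024 to 3168 CPM in shNT and 5227 to 5757 CPM in shGlud1, mostly VIM. Of the lists for other cell types, the summed level of 5 immune markers was 359 to 401 CPM in shNT and 276 to 290 CPM in shGlud1, nearly all from the lysosomal gene CD68, with AIF1 at 0 and PTPRC at no more than 1 count in each library. That of 5 epithelial markers was 54.6 to 59.4 CPM against 16.1 to 17.6 CPM, nearly all KRT14 in shNT and mostly KRT14 in shGlud1. KRT14 was lower in shGlud1 (log2 fold change -2.04), at 13.99 and 12.72 CPM there. CLDN4, at 3.35 and 3.21 CPM in shGlud1, went against the sum and was called higher (1.11). The 5 neuronal and 4 endothelial markers summed to at most 8.64 and 0.955 CPM. The part of these markers in the results was not tested. In bulk RNA, fewer cells that express a gene and less RNA per cell cannot be told apart.

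The inducible members were the ones that separated the groups most. HSPA6 (ENSG00000173110, GRCh38 chromosome 1, 161524540 to 161526910), a strictly inducible HSP70 that is found in human but not in mouse, reached 48366 and 45223 expected counts in shNT replicates 1 and 2, against 107 and 156 in shGlud1. That is 3543 and 2955 CPM against 5.35 and 6.77 CPM, a difference of 534-fold (log2 fold change -9.06, SE 0.24). The groups did not come near each other, and only 2 of the 14616 genes tested had a lower log2 fold change. Its pseudogene HSPA7, which shares 15.2% of the read-length (150-base) words of the HSPA6 transcript, had 30.5 and 46.5 expected counts in shNT and 0 in both shGlud1 libraries, at least 37.7-fold lower when 3 counts over the group are taken as the floor. Summing both rows left the log2 fold change of HSPA6 at -9.06.

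HSPA1B (ENSG00000204388, chromosome 6, 31827735 to 31830255), one of a pair of genes for the main inducible HSP70, had levels of 4035 and 3430 CPM with shNT and of 157 and 154 CPM with shGlud1. The difference was 23.9-fold (log2 fold change -4.58, SE 0.19). HSPA1A (ENSG00000204389, chromosome 6, 31815464 to 31817946), its neighbour on the same strand, was at 75.7 and 79.0 CPM in shNT and at 0.850 and 1.22 CPM in shGlud1, a difference of 73.7-fold (-6.20, SE 0.20). Both genes were far lower in each shGlud1 library than in any shNT library. The 2 rows cannot be read as separate genes with confidence. Of the read-length words of the HSPA1A transcript, 67.1% also occur in HSPA1B, and HSPA1A received only 1.84% and 2.25% of their joint counts in shNT (95% Wilson intervals 1.73% to 1.96% and 2.13% to 2.38%). In shGlud1 it received 0.537% and 0.780% (0.336% to 0.859% and 0.540% to 1.13%). How the authors divided reads that fit both genes is not given in the sources used here. Summed, the pair had 56115 and 53699 expected counts in shNT and 3164 and 3588 in shGlud1 (log2 fold change -4.60, SE 0.19). The intervals cover counting error only.

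**Figure D2:**
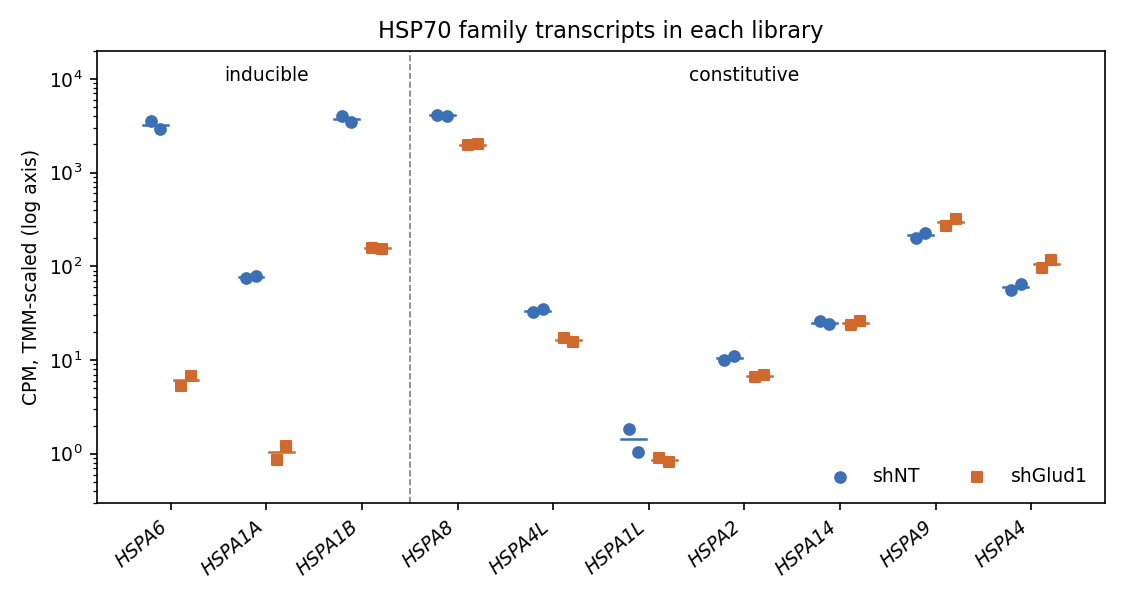
Level of each HSP70 member in each library as CPM with TMM factors on a log axis; points are the 2 libraries of a group (blue circles shNT, orange squares shGlud1), bars are group means, and the dashed line divides inducible from constitutive members. HSPA6, HSPA1A and HSPA1B differ by 534-, 73.7- and 23.9-fold, while HSPA14 overlaps between groups and HSPA9 and HSPA4 are higher in shGlud1. The rows of HSPA1A and HSPA1B cannot be read as separate genes with confidence.

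Among the constitutive members, HSPA8 (ENSG00000109971, chromosome 11, 123057489 to 123063230) was lower in shGlud1, by about a factor of 2.05. Its level was 4171 and 4008 CPM with shNT and 1961 and 2033 CPM with shGlud1 (log2 fold change -1.03, SE 0.17). The libraries of a group lay close together and the groups were well apart. Under total counts the value was -0.51, where the median of all genes was 0.57, and with the trend on longest transcript length removed it was -0.88.

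The HSP110 branch was divided. HSPA4 (ENSG00000170606, chromosome 5, 133051962 to 133106449) was at 56.5 and 65.2 CPM in shNT and at 96.9 and 117 CPM in shGlud1 (log2 fold change 0.81, SE 0.13). HSPA4L (ENSG00000164070, chromosome 4, 127781821 to 127840733) was at 32.2 and 35.0 CPM in shNT and at 17.3 and 15.5 CPM in shGlud1 (-1.03, SE 0.15). The groups did not overlap for either gene, and the directions were opposite under every scaling, with values of 1.34 and -0.52 under total counts. With each library's trend on transcript length removed, HSPA4 was at 0.48 and HSPA4L at -1.69. The span of HSPA4L also holds the pseudogene AC093591.1 on the opposite strand. AC093591.1 had 41.7 and 38.1 expected counts in shNT and 29.3 and 42.25 in shGlud1, against 440 and 536 and 347 and 358 for HSPA4L. Only AC093591.2, also on the opposite strand, shares read-length words with the longest HSPA4L transcript (3.64%).

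HSPA9 (ENSG00000113013, chromosome 5, 138553756 to 138575724) had levels of 200.05 and 227 CPM with shNT and of 268 and 324 CPM with shGlud1 (log2 fold change 0.47, SE 0.14). The shGlud1 libraries were the higher ones but differed from each other by more than the shNT pair did. The value was 0.99 under total counts and 0.15 with the length trend removed, so its size depended on these choices more than on the libraries left out (0.33 to 0.58).

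The remaining members were low. HSPA14 (ENSG00000187522, chromosome 10, 14838164 to 14871741) was at 25.9 and 24.2 CPM in shNT and at 23.8 and 26.4 CPM in shGlud1, and these ranges overlapped (log2 fold change 0.01, SE 0.15). HSPA14 overlaps CDNF on the opposite strand, and the library kit does not mark strand, so reads from the stretch they share cannot be assigned. CDNF had 11 and 16 expected counts in shNT and 17 and 25 in shGlud1, against 353 and 370 and 476 and 609 for HSPA14. HSPA14 was called higher under total counts (0.53, where the all-gene median was 0.57) and with the length trend removed (0.35). HSPA2 (ENSG00000126803, chromosome 14, 64535905 to 64546173) was at 10.1 and 10.98 CPM in shNT and at 6.55 and 6.94 CPM in shGlud1 (-0.64, SE 0.21). Under total counts it was at -0.12 and the groups overlapped. HSPA1L (ENSG00000204390, chromosome 6, 31809619 to 31815065) had 25, 16, 18 and 19 expected counts in shNT replicates 1 and 2 and shGlud1 replicates 1 and 2 (-0.73, SE 0.49). With so few counts its value ranged from -1.09 without shNT replicate 2 to -0.28 without shNT replicate 1, and it was not called with TMM factors. It was called lower in 1 alternative, with the trend on median transcript length removed (-1.10). HSPA1L, whose promoter window shares a heat shock pair with that of HSPA1A, was low in both groups.

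**Figure D3:**
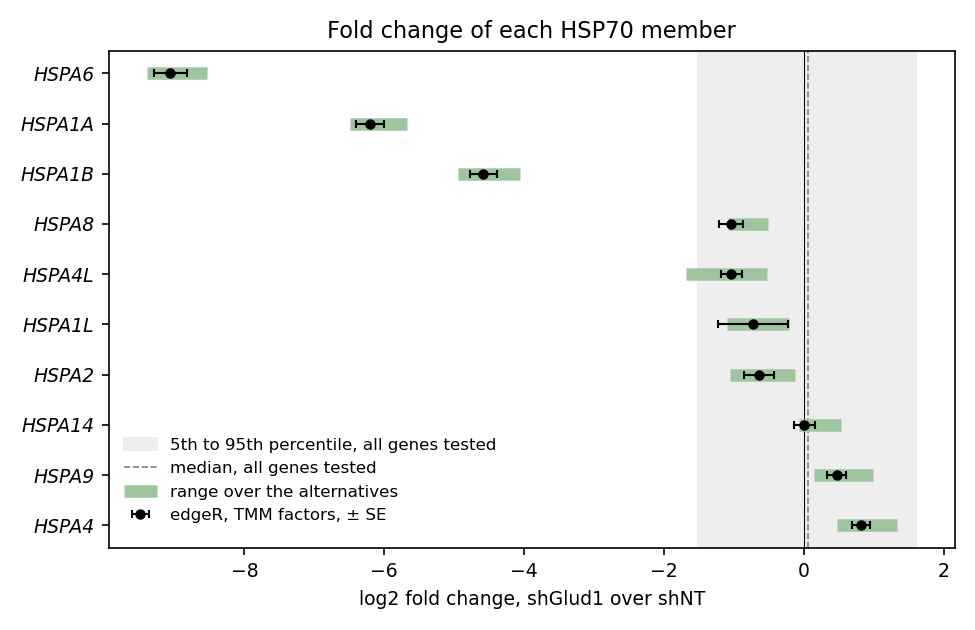
Log2 fold change (shGlud1 over shNT) of each HSP70 member; points and bars are edgeR values with SE, green bands span the alternative analyses, the grey area is the 5th to 95th percentile of all genes tested (-1.52 to 1.61) and the dashed line is their median (0.06). The 3 inducible members lie far outside that area and the 7 constitutive members lie inside it, apart from part of the band of HSPA4L.

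By edgeR's test 6 of the 10 members were lower and 2 higher, where 29.1% of all genes were called lower and 31.9% higher. Since the members were chosen with this contrast known, nothing is read from that count. Under total counts 5 were lower and 3 higher, and with the length trend removed, where 55.6% of all genes were called (28.7% lower and 27% higher), 6 were lower and 2 higher. With TMM factors the lower ones were the 3 inducible members, HSPA8, HSPA4L and HSPA2, and the higher ones were HSPA4 and HSPA9. With the length trend removed HSPA9 was not called and HSPA14 was called higher. At least 2-fold lower were 5 members, the inducible ones, HSPA8 and HSPA4L, and 12.8% of all genes. Changes of at least 16-fold downward were rare among all genes (0.349%), and they were found in the 3 inducible members and in none of the constitutive members. The median log2 fold change was -6.20 for the inducible members and -0.64 for the constitutive ones, against 0.06 for all genes. These medians are the values of HSPA1A, whose row cannot be separated from that of HSPA1B with confidence, and of HSPA2, a low gene. With HSPA1A and HSPA1B summed, the pair was at -4.60. The gap between the medians was -5.56, a difference in which scaling between libraries cancels. It was not computed with the pair summed. Without shNT replicate 1 it was -5.96. With TMM factors, CPM values of the groups did not overlap for 9 members, HSPA14 being the exception. Among all genes tested 81% showed no overlap (38.2% lower and 42.8% higher in shGlud1). Scaled by total counts, the groups overlapped for HSPA1L and HSPA2 and did not overlap for HSPA14. The share of all genes was not computed for that scaling.

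The makeup of the family was measured within each library, where scaling between libraries plays no part. The inducible genes held 63.0% and 59.7% of the members' expected counts in the shNT libraries (95% Wilson intervals 62.8% to 63.2% and 59.4% to 59.9%) and 6.44% and 6.05% in the shGlud1 libraries (6.23% to 6.66% and 5.86% to 6.24%). The mean was 61.3% ± 2.36 (SD, n = 2) against 6.24% ± 0.28 (SD, n = 2), a gap far wider than the spread between libraries. Counted per median transcript length, an alternative chosen after seeing the data, the shares were 39.3% and 2.55%. HSPA6 alone went from 28.2% ± 1.33 to 0.231% ± 0.029 of the pool and HSPA1B from 32.4% ± 1.10 to 5.97% ± 0.32. HSPA8 took 35.7% ± 1.88 of the pool in shNT and 76.5% ± 1.12 in shGlud1 although its own level was lower there. The shares of HSPA9 (1.87% ± 0.32 against 11.3% ± 1.06) and HSPA4 (0.533% ± 0.097 against 4.09% ± 0.38) also were larger in shGlud1. The whole family made up 1.002% and 0.915% of all expected counts with shNT and 0.292% and 0.334% with shGlud1. Summed, the inducible members were at 7653 and 6465 CPM in shNT against 163 and 162 CPM in shGlud1, while the constitutive members were at 4497 and 4372 CPM against 2374 and 2524 CPM.

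**Figure D4:**
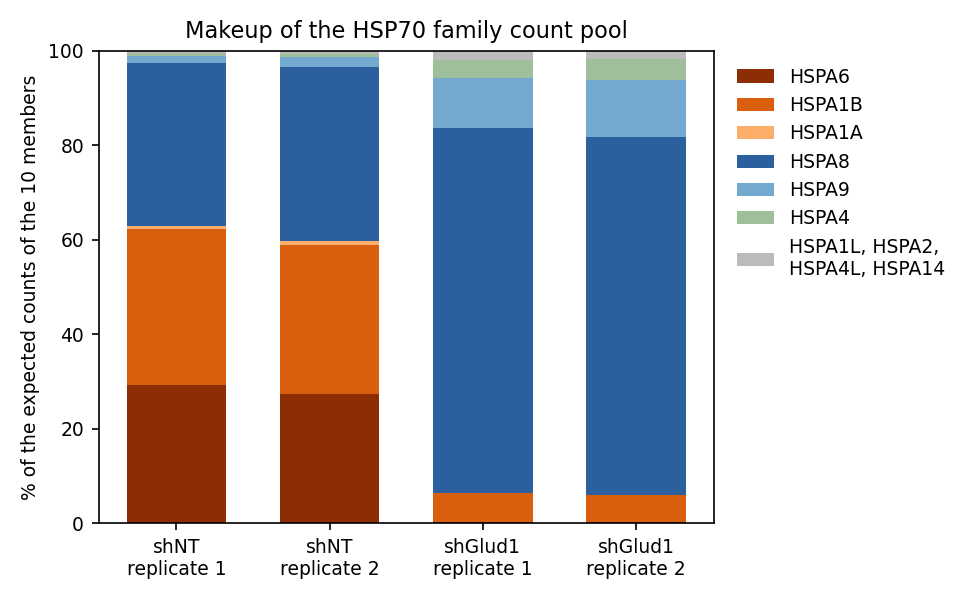
Share of the expected counts of the 10 HSP70 members held by each gene, in percent, with 1 stacked bar per library. Inducible genes (brown and orange) hold 63.0% and 59.7% of the shNT pools and 6.44% and 6.05% of the shGlud1 pools, where HSPA8 (dark blue) holds most of the pool.

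Levels of different genes are compared per kilobase of the longest annotated transcript. In shNT the order was HSPA8 (1660 ± 46.7 CPM per kb), HSPA1B (1481 ± 170), HSPA6 (1370 ± 175), HSPA9 (45.2 ± 4.07), HSPA1A (31.2 ± 0.93), HSPA14 (13.1 ± 0.62), HSPA4 (12.6 ± 1.28), HSPA4L (3.12 ± 0.18), HSPA2 (1.95 ± 0.11) and HSPA1L (0.57 ± 0.22), each as mean ± SD with n = 2. The libraries of HSPA1B and HSPA6 overlapped, as did those of HSPA14 and HSPA4. In shGlud1 HSPA8 was at 811 ± 20.9 CPM per kb, followed by HSPA9 (62.6 ± 8.36) and HSPA1B (61.8 ± 0.78), which overlapped, and by HSPA4 (22.2 ± 2.98) and HSPA14 (13.2 ± 0.98). HSPA6 was in the sixth place at 2.56 ± 0.42 CPM per kb. HSPA1A (0.42 ± 0.10) and HSPA1L (0.34 ± 0.02) were the lowest and overlapped. These values depend on the length used. The longest annotated transcript of HSPA4L has 10790 nt and its median transcript 2639 nt, while HSPA1B has a single transcript of 2521 nt. The rows of HSPA1A and HSPA1B cannot be read as separate genes with confidence, so the places of both in these orders are uncertain.

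Genes that work with HSP70 were taken from lists that the rule for the members did not use, although earlier results of these data were known when they were written. Of the other HSP70 and HSP110 superfamily genes 5 were tested. Among these, 4 fell and 1 rose (median log2 fold change -1.11, against 0.06 for all genes), where 29.1% of all genes fell and 31.9% rose. HSPA5, the endoplasmic reticulum HSP70 known as BiP, fell from 3319 ± 178 CPM to 950 ± 83.8 CPM (-1.80, SE 0.17, adjusted p = 1.23e-24 in edgeR's test). HSPH1, the heat-inducible HSP110, fell from 129 ± 14.7 CPM to 48.7 ± 7.86 CPM (-1.40, SE 0.13). HSPA13 (-1.11) and the endoplasmic reticulum exchange factor gene HYOU1 (-1.05) fell as well. HSPA12A, a distant member, rose from 0.78 ± 0.45 CPM to 3.84 ± 1.006 CPM (2.31, SE 0.39). The 4 falls and the rise were called under total counts as well, where 13.7% of all genes fell and 51.9% rose.

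Of 11 tested J-domain partners of the cytosolic HSP70s 6 fell and 2 rose (median -0.46), where 29.1% of all genes fell and 31.9% rose. Under total counts 4 fell and 4 rose, where 13.7% of all genes fell and 51.9% rose, and the same shares apply to the counts of the lists below. DNAJB1, the heat-inducible partner of HSPA1A and HSPA8, fell from 6061 ± 425 CPM to 318 ± 2.08 CPM (-4.25, SE 0.19, adjusted p = 1.31e-101 in edgeR's test). DNAJB4 (-2.001) and DNAJB2 (-1.83) also fell, while DNAJB5 (0.45) and DNAJC7 (0.42) rose. The call of DNAJB5 was lost without shNT replicate 2 (adjusted p = 0.159) and with the length trend removed (0.07, adjusted p = 0.693). DNAJC7 lost its call without shNT replicate 1 (adjusted p = 0.0713) and without shNT replicate 2 (0.0641). Of the exchange factors 6 of 8 fell and 2 rose (median -0.91), and under total counts 4 fell and 2 rose. BAG3, a stress-induced factor that links HSP70 to selective autophagy, fell from 498 ± 17.3 CPM to 51.0 ± 1.96 CPM (-3.29, SE 0.15, adjusted p = 1.34e-99 in edgeR's test). BAG1 fell by 2.49, and HSPH1, described above, is counted in this list too, while BAG5 (1.57) and BAG4 (0.61) rose. The call of BAG4 was lost in DESeq2 (adjusted p = 0.0886), without shNT replicate 2 (0.133) and without shGlud1 replicate 2 (0.133), and with the length trend removed (0.159).

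Of the 11 tested genes that pass clients from HSP70 to HSP90 or to the proteasome, 8 fell and 1 rose (median -0.70), but under total counts 3 fell and 3 rose. FKBP4 (-1.45), CHORDC1 (-1.27) and the HSP90 activator gene AHSA1 (-0.83) fell, and FKBP5 rose (1.67), from a level of 1.30 ± 0.54 CPM. All 11 mitochondrial partners of HSPA9 fell (median -0.96), and under total counts 8 fell and 0 rose. HSPE1, which encodes the mitochondrial HSP10, fell from 760 ± 64.2 CPM to 134 ± 9.91 CPM (-2.50, SE 0.15, adjusted p = 9.09e-57 by edgeR), DNLZ, an HSPA9 partner that keeps it soluble, by 1.98, and the import motor gene PAM16 by 1.71. HSPA9 itself had a positive value (0.47), as described above.

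Of 7 heat shock factors and their regulators 3 fell and 1 rose (median -0.17), so 4 were called where 61% of all genes were. Under total counts 2 fell and 3 rose. HSF1 was at 162 ± 8.64 CPM in shNT and at 123 ± 18.3 CPM in shGlud1 (log2 fold change -0.40, SE 0.13, adjusted p = 0.00534 by edgeR). Under total counts, where the all-gene median was 0.57, it was not called and had the other sign (0.12, adjusted p = 0.361 by edgeR). It also lost its call without shNT replicate 2 (adjusted p = 0.143) and without shGlud1 replicate 2 (0.0757). HSF2 rose from 6.80 ± 0.18 CPM to 13.2 ± 1.84 CPM (0.96, SE 0.20), and HSF4 was at 3.47 ± 0.48 CPM and 3.08 ± 0.24 CPM and was not called. HSBP1, which encodes a small protein that binds the HSF1 trimer, fell from 582 ± 7.04 CPM to 252 ± 18.4 CPM (-1.21, SE 0.15), and HSF2BP fell by 2.07 from 4.05 ± 0.65 CPM. SIRT1 and DAXX were not called (0.28 and 0.11), except under total counts (0.80 and 0.63, where the all-gene median was 0.57). The data hold transcript levels only, and HSF1 is controlled largely at the level of the protein.

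Among 12 other genes known to be induced by heat shock all 12 fell (median -1.98), and 10 fell and 0 rose under total counts. CRYAB, a small heat shock protein gene, fell from 68.6 ± 5.53 CPM to 1.16 ± 0.57 CPM (-5.85, SE 0.20) and ZFAND2A from 853 ± 114 CPM to 22.03 ± 4.395 CPM (-5.28, SE 0.18), and HSPD1 and HSPE1 are also counted among the HSPA9 partners. Of 10 genes often used as constitutive references, 2 fell, B2M (-1.39) and GUSB (-0.71), and 2 rose, SDHA (0.90) and TFRC (0.53), and their median was 0.16. With total-count scaling 1 fell and 7 rose. TFRC lost its call without shNT replicate 1 (adjusted p = 0.052) and with the length trend removed (0.16, adjusted p = 0.271), and GUSB lost it under total counts (-0.19, adjusted p = 0.214).

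**Figure D5:**
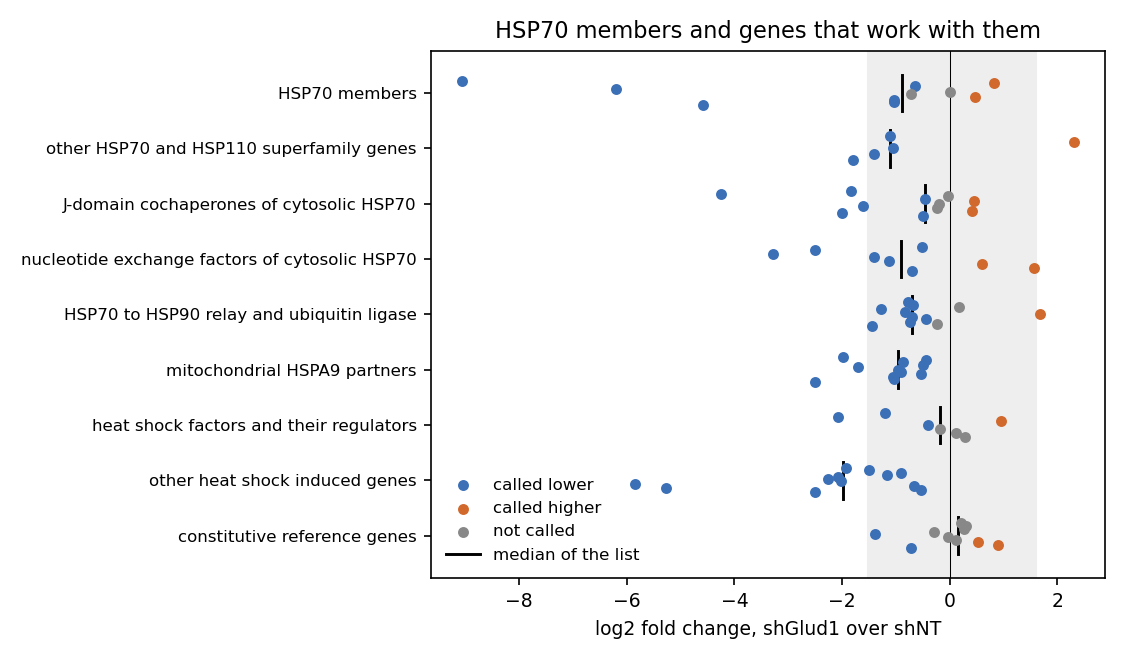
Log2 fold change (shGlud1 over shNT) of the HSP70 members and of 8 gene lists; each point is a gene, blue called lower, orange called higher and grey not called by edgeR's test, black bars are list medians, and the grey area is the 5th to 95th percentile of all genes. All 11 HSPA9 partners and all 12 other heat shock induced genes lie to the left of 0, and the remaining lists hold both directions. Under total counts the J-domain, relay, heat shock factor and reference lists had as many or more rises than falls.

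The genes whose profile over the 4 libraries lay nearest to that of the inducible members were CRYAB, FOS, ZFAND2A, RN7SK and RMRP. Nearness is the Euclidean distance between log2(CPM + 0.5) values centred on each gene's mean over 4 libraries, against the mean profile of HSPA6, HSPA1A and HSPA1B, and genes averaging under 5 CPM were left out. The distances were 1.04 for CRYAB, 1.10 for the immediate-early gene FOS, 1.23 for ZFAND2A, 1.49 for RN7SK and 1.71 for RMRP. Since the profile is mostly the gap between the groups, these are mainly genes with a fall of similar size, from -5.99 for FOS to -5.26 for RN7SK on the log2 scale. RN7SK and RMRP are short non-coding RNAs that normally lack a poly-A tail, and the libraries here came from a poly-A selection.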

How the data were processed

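RNA was measured in 2 shNT and 2 shGlud1 libraries, selected for poly-A RNA, amplified over 12 cycles and read in pairs of 150 nt, per the labels' protocols. Expected counts were deposited by the authors (estimates, of which 20.1% above 0 were not whole numbers). Bowtie 0.12.2 and the mouse build mm8 are named per the submitters' processing notes, yet every row is a human Ensembl gene, so the build is uncertain. No source used here gives the counting program or annotation.

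Counts were rounded and filtered with filterByExpr (minimum count 10), which left 14616 genes, and groups were compared in edgeR 4.0.16 (R 4.3.3, TMM factors, robust quasi-likelihood test, Benjamini-Hochberg adjustment over all genes, threshold 0.05). The fit was tested on simulated data in which few genes changed. It recovered 33.8%, 75.4% and 97.1% of changes of 1.5-, 2- and 4-fold and called 9 unchanged genes. That setting differs from the real data, where 61% of genes were called, so these rates need not hold there. SE is the absolute log2 fold change over the square root of F. Replicate numbers are shared between groups, but the labels do not say whether they pair the samples, so the main fit used no block. Positions, lengths and shared words are from GENCODE 29 (GRCh38) by Ensembl ID, and promoters from RefSeq. Aside from the members, GLUD1, HSPA7 and the 5 nearest profiles, the text names of each list up to 3 rises and 3 falls by lowest p and every tested heat shock factor gene and other HSP70 gene. Members and lists were chosen with earlier results of these data known. Alternatives were RLE, upper-quartile and total scaling, DESeq2 1.42.0, limma-voom (limma 3.58.1), other filters, the replicate block, leaving out each library, and removal of a lowess trend (span 0.3) on longest transcript length. Chosen after seeing the data were the median transcript length, TMM factors without the members and summed near-identical rows. Python 3.11.15, pandas 2.3.3, Biopython 1.88 and matplotlib 3.10.9 were used.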

Additional observations from a re-analysis of the deposited data

How the results depend on the processing

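Over 15 alternatives, 5 to 7 members were called lower and 1 to 3 higher, and none of the called members changed sign. The 3 inducible members, HSPA8, HSPA4L and HSPA4 were called under each alternative that tested them. Leaving out 1 library gave 1 to 2 members called higher and a gap between inducible and constitutive medians of -5.96 (without shNT replicate 1) to -5.38 (without shGlud1 replicate 1), with -5.83 without shGlud1 replicate 2. HSPA9 was not called without shNT replicate 1 or with the length trend removed. HSPA2 was not called without shNT replicate 2 or under total counts. The inducible share was 39.3% in shNT and 2.55% in shGlud1 per median transcript length, and 6.64% in shGlud1 per longest transcript length. With HSPA9, HSPA14, HSPA4 and HSPA4L left out of the pool, the inducible share was 7.52% in shGlud1. Under total counts, where the all-gene median was 0.57, HSF1 had a value of 0.12 and HSF4 of 0.34. HSF4 was at 0.18 with the length trend removed, and SIRT1 at -0.23 with the trend on median transcript length removed. The cause was not tested. With the replicate number as a block, 6 members were called lower, 2 higher and 9046 genes in all, the gap was -5.56 and GLUD1 was at -0.99. With the trend on median transcript length removed GLUD1 was at -0.47. The deviations of same-numbered libraries had a correlation of 0.0409 across genes. With 2 libraries a group, a fit without 1 of them assumes that the lone library varies like the other group.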
